A study of Rattus norvegicus with 9 samples.

Results

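Among the subunits of the GABA-A receptor, the messages of Gabrb2 and Gabra4 stood higher in the prefrontal cortex (PFC) of maternally separated rats than in that of Control rats, and they stood about as high in separated rats that later received electroacupuncture (EA). Gabra2, Gabra3, Gabra5, Gabrb1 and Gabrd lay close to their Control levels, so that the subunits differed in their proportions. No subunit passed an adjusted p of 0.05 in the main test, and none differed by more than 1.5-fold. The subunits described are Gabra2, Gabra3, Gabra4, Gabra5, Gabrb1, Gabrb2 and Gabrd, chosen by name, and they are 7 of 37209 genes counted and 7 of the 19 GABA-A subunit genes among them. All 7 passed the filter on low counts, with at least 542 counts in every rat.

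The GABA-A receptor is the chloride channel through which GABA inhibits neurons quickly, and each receptor is a ring of subunits drawn from several families. Alpha subunits shape where a receptor sits and which drugs bind it, beta subunits are needed for assembly and help to form the GABA site, and gamma or delta subunits complete the ring. Receptors with a gamma subunit gather mainly at synapses, while those with delta lie outside them, respond to low ambient GABA and are sensitive to neurosteroids. In the PFC these receptors carry the inhibition that interneurons exert on pyramidal neurons.

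RNA came from the frontal cortex of 9 male Wistar rats aged 14 weeks, with 3 rats in each group and each rat in 1 library. Control pups (rats A1, A2 and A6) stayed with their dams until weaning. Pups of the maternal separation (MS) group (B3, B4 and B6) were taken from their dams for 4 h per day between postnatal day (PND) 1 and PND 21. The MS+EA rats (C3, C10 and C16) went through the same separation and then had EA at the acupoints GV20 and GV29 on alternate days between PND 61 and PND 81. Per the labels, Control and MS rats were anesthetized too on those days, and per the methods isoflurane was used for EA and again when the tissue was taken. Isoflurane itself acts on GABA-A receptors, and all 9 rats shared it at the end. The libraries included no sham EA group, so that current and needle cannot be told apart in MS+EA rats. How the rats were spread over litters is not given, and the p-values measure the spread between rats whatever the litter.

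Libraries held 12479905 to 19007907 counts, and the 3 smallest were the MS+EA libraries (12479905 to 14913736), so that depth and EA treatment cannot be told apart beyond the scaling applied. In bulk tissue, fewer cells that express a gene and less RNA per cell cannot be told apart. Cortical neuron markers were abundant in every library. Rat B4 stood apart by the hypothalamic peptides Oxt and Avp, with 258 and 503 counts, against 0 to 25 and 0 to 29 in the other rats. Of these, Control rat A1 had the most of Oxt and Avp, with 25 and 29 counts. The hypothalamic peptides Pmch and Hcrt were highest in A1, at 31 and 23 counts, and stood at 4 and 0 in B4. Pmch held 18 counts in B3 and 16 in B6. Results that rest on B4, A1 or C10 are also given without them.

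Levels are CPM, counts relative to library size, scaled by the trimmed mean of M values. They are not divided by transcript length, so the level of 1 subunit cannot be set against that of another. Differences are log2 fold changes of the edgeR quasi-likelihood fit, with adjusted p-values over all 16837 genes tested. A call needed an adjusted p under 0.05 and a fold above 1.5, and 0 of 7 subunits were called in each comparison, where 0.0238% of all genes were called between MS and Control, 0.0178% between MS+EA and MS, and 1.37% between MS+EA and Control rats. With no limit on the fold 0 of 7 passed as well, against 0.0238%, 0.0178% and 5.40% of all genes. In the plot of levels by rat, Gabrb2 and Gabra4 are the subunits with all 6 separated rats above the Control rats.

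**Figure D1:**
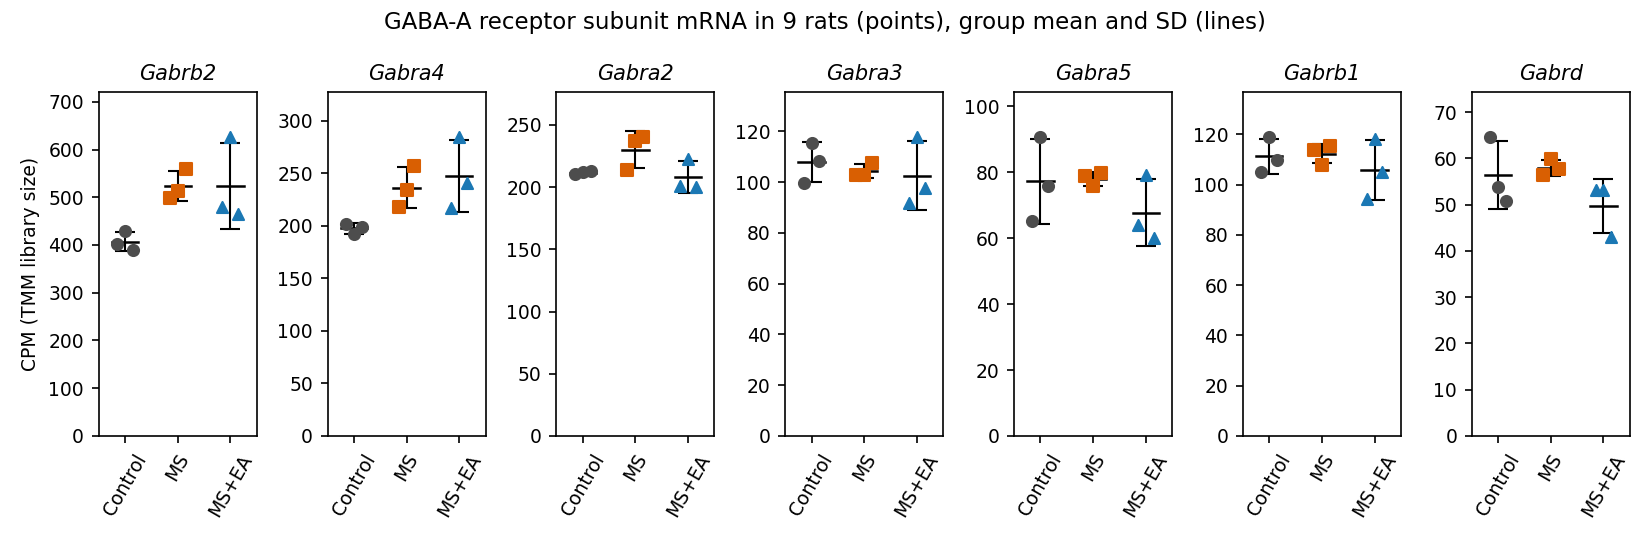
Level of each subunit (CPM, each axis from 0) in Control, MS and MS+EA rats, 1 point per rat, with the mean as a bar and the SD as whiskers (n = 3 rats). For Gabrb2 the 6 separated rats lie between 464 and 626 CPM, above the highest Control rat at 430 CPM, and for Gabra4 between 217 and 285 CPM against at most 201 CPM in Control rats.

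Gabrb2 encodes a beta subunit that is part of the most common receptors of the adult brain. It stood at 401, 430 and 390 CPM in the Control rats A1, A2 and A6. In the MS group B3 was at 499, B4 at 512 and B6 at 558 CPM. The MS+EA rats C3, C10 and C16 had 480, 626 and 464 CPM. Every separated rat was above every Control rat, and the MS+EA rats spanned the MS range and beyond it on both sides, with C10 as the highest of all 9. The mean was 407 CPM ± 20.8 (SD, n = 3) in Control, 523 CPM ± 31.1 in MS and 524 CPM ± 89.5 in MS+EA rats. Gabrb2 was 1.29-fold higher in MS than in Control rats, a log2 fold change of 0.36 (SE 0.102) with an edgeR p of 0.00373 that was 0.196 after adjustment. In MS+EA against Control rats the log2 fold change was also 0.36 (SE 0.102), with an edgeR p of 0.00369 and an adjusted p of 0.0576. For MS+EA against MS rats it was 0.00, with a 95% confidence interval of -0.22 to 0.22. By DESeq2, whose log2 fold changes were the same to 2 decimals, the adjusted p was 0.0508 between MS and Control rats and 0.012 between MS+EA and Control rats. The order of the Gabrb2 levels was thus Control below the separated rats, while MS and MS+EA rats did not differ beyond their spread. Without C10 the difference between MS+EA and Control rats was 0.21 in place of 0.36, and without B4 the difference between MS and Control rats was 0.38.

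Gabra4 encodes an alpha subunit that is insensitive to classical benzodiazepines and that joins delta in receptors outside the synapse. Its level was 201, 192 and 199 CPM in Control rats. It was 218, 234 and 257 CPM in MS rats and 217, 285 and 241 CPM in MS+EA rats. Again all 6 separated rats exceeded the Control rats, the MS and MS+EA rats overlapped, and C10 was the highest. Means were 198 CPM ± 4.85 (SD, n = 3) in Control, 237 CPM ± 19.7 in MS and 248 CPM ± 34.5 in MS+EA rats. The log2 fold change between MS and Control rats was 0.26 (SE 0.0938), with an edgeR p of 0.0163 and an adjusted p of 0.324. In MS+EA against Control rats it was 0.33 (SE 0.0939), with an edgeR p of 0.00436 and an adjusted p of 0.0624. By DESeq2 these adjusted p-values were 0.239 and 0.0202. For MS+EA against MS rats the log2 fold change was 0.07, with a 95% confidence interval of -0.14 to 0.27. Without C10 the Gabra4 difference between MS+EA and Control rats was 0.21, and the difference between MS+EA and MS rats was -0.05.

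Gabrb2 and Gabra4 were the 2 subunits of 7 at an unadjusted p under 0.05 between MS and Control rats, both higher, where 10.6% of all genes tested met that p in either direction. Between MS+EA and Control rats the same rule was met by 2 of 7, both higher, against 22.5% of all genes, and between MS+EA and MS rats by 0 of 7 in edgeR, against 12.4% of all genes in either direction. Between MS+EA and MS rats DESeq2 counted 1 of 7, Gabra2 as lower, and without C10 edgeR counted 3 of 7, Gabra2, Gabra5 and Gabrd as lower. In 1 test per gene of any difference among the 3 groups, Gabrb2 had an edgeR p of 0.00526 (adjusted p 0.0988) and Gabra4 an edgeR p of 0.0109 (adjusted p 0.134). These are again 2 of 7 at an unadjusted p under 0.05, where 19.2% of all genes met it, and 0 of 7 after adjustment, where 2.03% did.

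Because Gabrb2 and Gabra4 carry the difference, the promoters of both are printed with those of Gabrb1 and Gabrd, a beta subunit and a frequent partner of Gabra4 that stayed near their Control levels. Each sequence runs from 250 bases before the annotated start to 50 bases after it, read 5′ to 3′ on the strand of the gene, and was taken from RefSeq on GRCr8. The positions are chr10:27439543-27439842 on the plus strand for Gabrb2, chr14:36944497-36944796 on the plus strand for Gabra4, chr14:36902844-36903143 on the minus strand for Gabrb1 and chr5:171252660-171252959 on the minus strand for Gabrd. Capitals mark, in the beta promoters, every stretch of 10 or more letters that both hold in the same orientation, and elsewhere the letters GGGCGG (the Sp motif) found on either strand.
Gabrb2: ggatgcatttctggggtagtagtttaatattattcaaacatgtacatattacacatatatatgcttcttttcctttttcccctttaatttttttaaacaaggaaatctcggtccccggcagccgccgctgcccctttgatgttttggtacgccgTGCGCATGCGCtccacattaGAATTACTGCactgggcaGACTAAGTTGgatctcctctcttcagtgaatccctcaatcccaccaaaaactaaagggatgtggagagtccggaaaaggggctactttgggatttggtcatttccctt
Gabra4: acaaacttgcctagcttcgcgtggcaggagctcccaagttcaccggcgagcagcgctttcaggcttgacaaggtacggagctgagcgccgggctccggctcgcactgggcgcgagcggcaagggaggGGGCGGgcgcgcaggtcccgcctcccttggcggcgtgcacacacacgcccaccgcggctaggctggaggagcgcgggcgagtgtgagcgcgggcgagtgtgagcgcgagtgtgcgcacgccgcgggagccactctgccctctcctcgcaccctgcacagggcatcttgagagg
Gabrb1: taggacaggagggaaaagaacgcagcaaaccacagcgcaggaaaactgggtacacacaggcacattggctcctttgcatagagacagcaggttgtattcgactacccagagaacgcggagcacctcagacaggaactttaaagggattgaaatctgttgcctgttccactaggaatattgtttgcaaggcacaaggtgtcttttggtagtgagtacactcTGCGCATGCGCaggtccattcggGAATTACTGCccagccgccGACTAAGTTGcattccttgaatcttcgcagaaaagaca
Gabrd: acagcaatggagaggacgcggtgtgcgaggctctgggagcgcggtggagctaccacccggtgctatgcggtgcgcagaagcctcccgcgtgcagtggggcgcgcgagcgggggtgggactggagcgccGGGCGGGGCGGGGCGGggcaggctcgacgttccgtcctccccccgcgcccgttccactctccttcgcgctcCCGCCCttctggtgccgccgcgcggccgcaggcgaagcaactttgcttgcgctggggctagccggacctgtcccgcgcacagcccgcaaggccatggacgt
What to mark was chosen after these sequences had been read. The beta promoters shared 3 stretches in the same order, TGCGCATGCGC, which holds the NRF1 motif, then GAATTACTGC and GACTAAGTTG. They began 96, 76 and 58 bases before the start of Gabrb2, and 30 and 7 bases before and at base 13 after the start of Gabrb1. On either strand they were found in 0.598%, 0.0388% and 0.0149% of 33469 promoters of the same length. Gabrb2 and Gabrb1 thus share these letters while their levels stood differently to Control. The Sp letters occurred once in Gabra4 and 4 times in Gabrd, in which 3 of the matches share letters, and in 33.1% of all promoters. Neither beta promoter held them. Searches on both strands for TGACGTCA (CRE), TGACG (its core), GCGTGGGCG (Egr) and CCAAT, held by 1.83%, 21.2%, 0.544% and 37.5% of all promoters, found 1 CCAAT in Gabrb1 and no other match in the promoters printed. The share of G and C was 44.0% in Gabrb2 and 49.3% in Gabrb1, near the median promoter at 51.7%, and 70.7% in Gabra4 and 73.7% in Gabrd. These are matches of letters within 1 window, and binding was not measured.

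Gabrb1, the other beta subunit of the set, showed no such step. It had 105, 119 and 110 CPM in Control rats, 114, 108 and 115 CPM in MS rats and 94.2, 118 and 105 CPM in MS+EA rats. The 3 groups overlapped throughout. Its log2 fold change was 0.01 between MS and Control rats (95% confidence interval -0.17 to 0.20), -0.09 between MS+EA and MS rats (-0.27 to 0.10) and -0.07 between MS+EA and Control rats (-0.26 to 0.11).

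Gabra2 encodes an alpha subunit found at the axon initial segment of pyramidal neurons and linked to the calming action of benzodiazepines. Control rats stood within a narrow range of 210.2, 212.0 and 212.9 CPM. MS rats had 213.4, 236.8 and 240.4 CPM, and MS+EA rats 200.9, 222.7 and 199.9 CPM. MS rats were thus above Control rats without overlap, but B3 exceeded the highest Control rat by little. The log2 fold change was 0.12 between MS and Control rats (edgeR p 0.1005, adjusted p 0.550) and -0.15 between MS+EA and MS rats (95% confidence interval -0.30 to 0.00, edgeR p 0.0515, adjusted p 0.404). Gabra2 in MS+EA rats was at -0.03 relative to Control rats.

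Gabra3, an alpha subunit of benzodiazepine-sensitive receptors, overlapped in all comparisons. Its levels were 99.7, 115 and 108 CPM in Control, 103, 103 and 108 CPM in MS and 91.9, 118 and 97.8 CPM in MS+EA rats. The log2 fold changes were -0.05 between MS and Control rats, -0.03 between MS+EA and MS rats and -0.07 between MS+EA and Control rats. Gabra3 is X-linked in the rat, and all rats were male.

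Gabra5 encodes an alpha subunit of mostly extrasynaptic receptors that is known for its part in hippocampal memory. It varied most among the Control rats, at 65.1, 90.7 and 75.9 CPM, and MS rats lay inside that range at 78.7, 75.7 and 79.8 CPM. MS+EA rats had 63.9, 79.3 and 60.02 CPM, of which C3 and C16 were below every other rat and C10 was not. The log2 fold change was 0.02 between MS and Control, -0.20 between MS+EA and MS (95% confidence interval -0.47 to 0.06, edgeR p 0.117, adjusted p 0.513) and -0.19 between MS+EA and Control rats. Without C10 the Gabra5 difference between MS+EA and MS rats was -0.33 in place of -0.20, at an unadjusted edgeR p of 0.0147.

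Gabrd, the delta subunit, had 64.7, 53.9 and 50.7 CPM in Control rats and 56.4, 59.9 and 57.8 CPM in MS rats. In MS+EA rats it had 53.1, 53.2 and 43.1 CPM, below all MS rats but overlapping the Control rats. The log2 fold change between MS+EA and MS rats was -0.22 (SE 0.106, 95% confidence interval -0.45 to 0.01), with an edgeR p of 0.0592 and an adjusted p of 0.422. It was 0.04 between MS and Control rats and -0.18 between MS+EA and Control rats. Gabrd and Gabra4, whose products assemble together, had estimates of opposite sign in MS+EA against Control rats, and the difference between the genes was not tested.

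Groups without overlap were found for 3 of 7 subunits between MS and Control rats (Gabrb2, Gabra4 and Gabra2, all higher), as for 17.6% of all genes tested. It was 1 of 7 for MS+EA and MS rats (Gabrd, lower), against 17.9% of all genes, and 2 of 7 for MS+EA and Control rats (Gabrb2 and Gabra4, higher), against 25.9%. The median log2 fold change of the 7 was 0.04, -0.09 and -0.07 in these 3 comparisons, and the median of all genes was within 0.01 of 0 each time. The comparisons share groups, and their values are not independent. In MS+EA rats C10 had the highest level of all 7 subunits. The plot of fold changes gives each estimate with its interval.

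**Figure D2:**
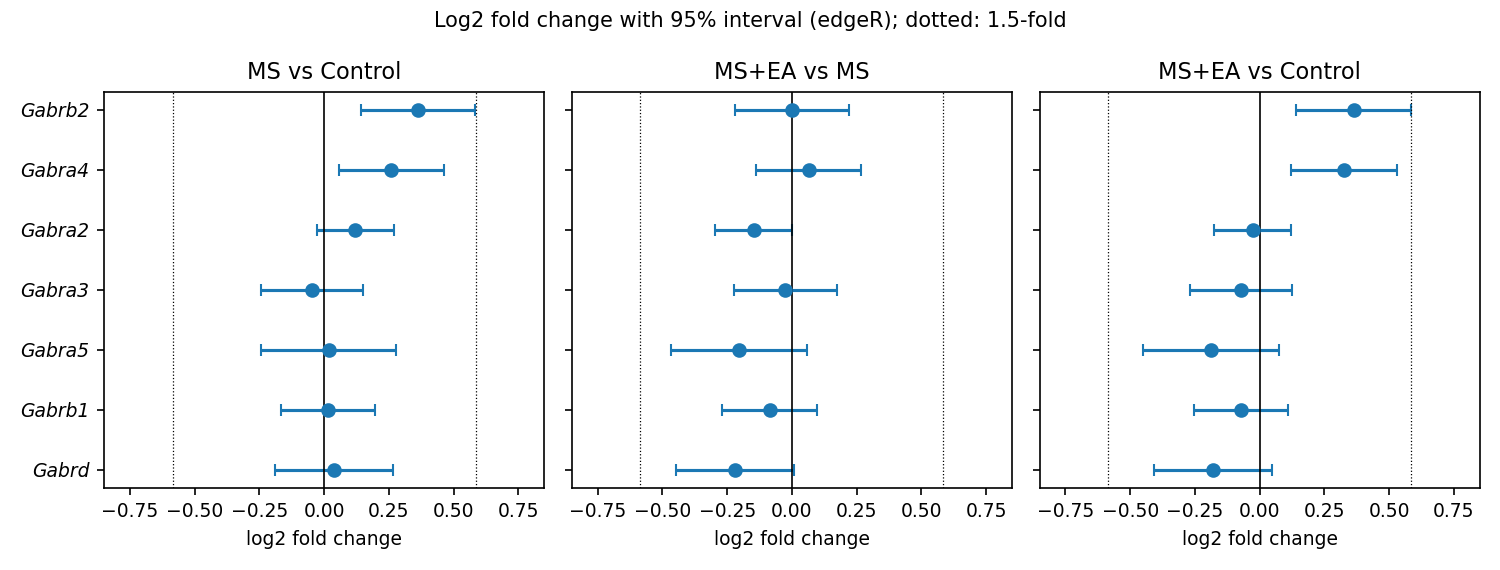
Log2 fold change (horizontal axis) of the 7 subunits for MS vs Control, MS+EA vs MS and MS+EA vs Control, with points for the edgeR estimate and bars for its 95% confidence interval (n = 3 rats per group). Gabrb2 and Gabra4 lie to the right of 0 in both comparisons with Control rats, at 0.26 to 0.36. The intervals of Gabra2, Gabra3, Gabra5, Gabrb1 and Gabrd include 0 in every comparison. For Gabra2 in MS+EA vs MS the interval does so only just, with its upper end at 0.0011.

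Summed over the 7, subunit counts made up 0.113% to 0.150% of a library. The sum was 1169 CPM ± 38.3 (SD, n = 3) in Control rats, 1343 CPM ± 68.1 in MS rats and 1305 CPM ± 171 in MS+EA rats. All MS rats were above all Control rats in this sum. The MS+EA rats overlapped both groups, with C3 at 1200, C10 at 1502 and C16 at 1212 CPM.

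The share of a subunit in the counts of the 7 does not depend on the scaling of the library, and it shows how the composition differed. Gabrb2 made up 35.0%, 35.5% and 34.0% of these counts in Control rats. It made up 38.9%, 38.5% and 39.4% in MS rats and 40.0%, 41.7% and 38.3% in MS+EA rats. The Control rats lay below all others. An exact permutation test over the 3 groups, in which 1680 assignments are possible and the smallest p is 0.00357, gave p = 0.0179 for the Gabrb2 share. With 3 rats against 3 the exact permutation test of a pair of groups cannot go below p = 0.1.

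Gabra4 averaged 16.9% of the counts in Control, 17.6% in MS and 18.97% in MS+EA rats (exact permutation p = 0.0429, 3 rats per group). The other 5 subunits had lower mean shares in MS+EA than in Control rats, without overlap in each, though for Gabrd C3 (4.422%) lay just under the lowest Control rat (4.425%). Gabra2 went from 18.1% through 17.1% to 16.02% (exact permutation p = 0.025) and Gabra5 from 6.59% through 5.82% to 5.18% (exact permutation p = 0.0429). Gabra3 had 9.22%, 7.78% and 7.86% (exact permutation p = 0.025), Gabrb1 9.51%, 8.37% and 8.13% (exact permutation p = 0.0179), and Gabrd 4.83%, 4.33% and 3.84% (exact permutation p = 0.0929). Shares of 1 sum are bound together, and the higher Gabrb2 share alone lowers the others, so the 7 p-values are not separate pieces of evidence. Shares without overlap numbered 3 between MS and Control rats (Gabrb2 higher, Gabra3 and Gabrb1 lower), 1 between MS+EA and MS rats (Gabra5 lower) and 7 between MS+EA and Control rats. With Gabrb2 left out of the sum, a choice made after the data had been seen, the last count was 2 in place of 7, namely Gabra4 as higher and Gabrb1 as lower. With the counts of all 19 subunit genes as the sum, the Gabrb2 share averaged 19.9% in Control, 21.7% in MS and 22.1% in MS+EA rats, and its exact permutation p over the 3 groups was 0.075 in place of 0.0179, although no separated rat overlapped the Control rats. The Gabra4 share of that sum was 9.69%, 9.82% and 10.5%, with overlap between MS+EA and Control rats and an exact permutation p of 0.139 in place of 0.0429. The other 5 subunits had lower shares of that sum in MS+EA than in Control rats without overlap, and exact permutation p-values of 0.00357 (Gabra2) to 0.0429 (Gabrd).

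Within the same class the proportions differed as well, in a comparison that was also chosen after the data had been seen. Of the counts of the beta pair, Gabrb2 held 79.2%, 78.3% and 78.1% in Control rats, 81.5%, 82.6% and 82.9% in MS rats and 83.6%, 84.1% and 81.5% in MS+EA rats. All separated rats were above all Control rats, and the exact permutation test over the 3 groups gave p = 0.0143. Of the counts of the 4 alpha subunits, Gabra4 held 34.9%, 31.5% and 33.4% in Control rats, 35.6%, 36.1% and 37.6% in MS rats and 37.8%, 40.4% and 40.3% in MS+EA rats. Here the 3 groups did not overlap, although C3 exceeded the highest MS rat by little, and the exact permutation test over the 3 groups gave p = 0.00357, the smallest possible. The plot of composition by rat shows these shares.

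**Figure D3:**
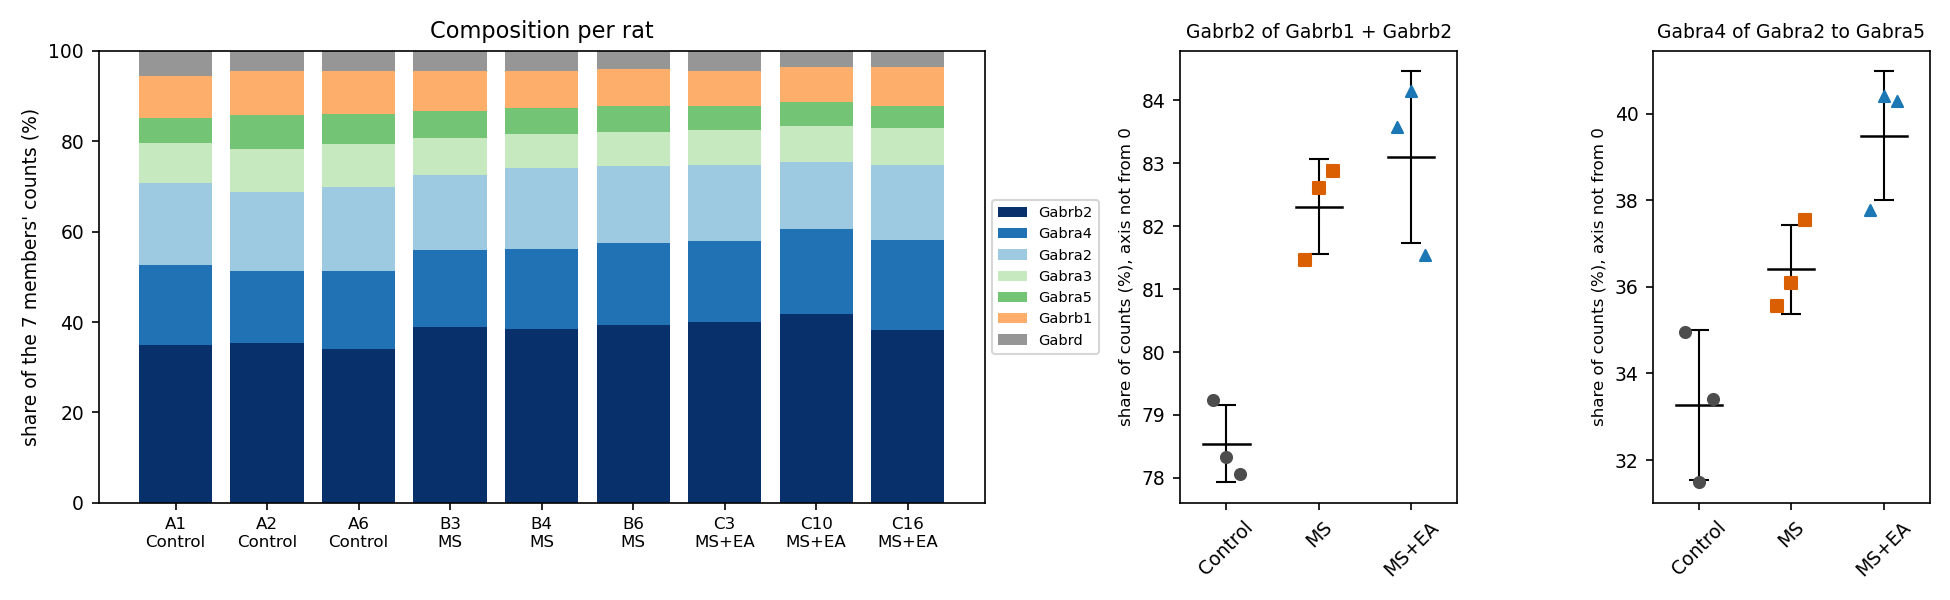
Left, share of each subunit in the summed counts of the 7 (%), 1 stacked bar per rat, with the group under each rat; middle and right, share of Gabrb2 in Gabrb1 + Gabrb2 and of Gabra4 in Gabra2 to Gabra5 (%, axes not from 0), 1 point per rat with mean and SD (n = 3 rats). The Gabrb2 share of the beta pair is 78.1% to 79.2% in Control and 81.5% to 84.1% in the separated rats, and the Gabra4 share of the alpha counts is higher in each group than in the one before it.

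Of the 12 subunit genes outside the set, 8 were abundant enough to be tested. Gabrg1, a gamma subunit, was at 0.36 between MS and Control rats (edgeR adjusted p 0.310), without overlap. Gabrg3, another gamma subunit, was at -0.39 between MS+EA and Control rats (edgeR adjusted p 0.169), also without overlap. In MS+EA against MS rats 0 of the 8 were at an unadjusted edgeR p under 0.05.

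Subunit genes lie in clusters, and this grouping was looked up after their values had been seen. In GRCr8 Gabrb2 adjoins Gabra6, which held only 4 to 20 counts per rat, with 0 other protein-coding genes between them. Gabra4 lies next to Gabrb1 in a second cluster, with 0 protein-coding genes between these, 1 between Gabra4 and Gabra2, and Gabrg1 beyond. Gabra5 adjoins Gabrg3. Gabra4 and Gabrg1 stood higher in MS than in Control rats. Gabra2, which lies between them, was also above Control without overlap, but by a log2 fold change of 0.12 (edgeR p 0.1005). Gabrb1, the direct neighbour of Gabra4, did not stand higher.

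Over the 9 rats, the level profiles of Gabrb2 and Gabra4 were nearest to each other among the 7, with a root mean square distance of 0.0874 between their centred log2 values. Gabra3 and Gabrb1 were nearest to each other as well, at 0.0431. Such nearness is common where profiles are nearly flat: 734 of 14574 mRNAs lay within 0.1 of Gabra3 and 1022 within 0.1 of Gabrb1. Fewer lay that near to Gabra4 (329), Gabrb2 (76) and Gabra5 (8). Among these mRNAs Gabra4 ranked 26 in nearness to Gabrb2, and Gabrb2 ranked 194 in nearness to Gabra4. Gabra3 and Gabrb1 each ranked 5 in nearness to the other. The nearest gene of any kind was Xiap for Gabrb2 (0.0322), Ube2d2 for Gabra4 (0.0355), Gatad1 for Gabra2 (0.0347), Adprhl2 for Gabra3 (0.0373), Rps20 for Gabra5 (0.0646), Sstr1 for Gabrb1 (0.0334) and Htatip2 for Gabrd (0.0540). All points of a profile share the library and its depth.

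Genes for proteins that hold GABA-A receptors at the synapse or carry them to the membrane differed in both directions. Of 26 genes listed, 24 were tested, with a median log2 fold change of -0.05 between MS and Control, -0.06 between MS+EA and MS and -0.10 between MS+EA and Control rats. Between MS and Control rats 2 were higher at an unadjusted p under 0.05, among them Slitrk3 (0.33), an adhesion protein of inhibitory synapses, and 2 were lower, Hap1 (-0.45), which carries receptors back to the surface, being one with groups that did not overlap. In MS+EA against MS rats 0 were higher and 4 lower, among them Gabarap (-0.26), a carrier that binds the receptor, Nlgn2 (-0.19), the neuroligin of inhibitory synapses, and Clptm1 (-0.17), which retains receptors inside the cell. In MS+EA against Control rats 2 were higher and 8 lower. There Gabarap (-0.40, edgeR adjusted p 0.0196), Hap1 (-0.41, edgeR adjusted p 0.0252), Nlgn2 (-0.29, edgeR adjusted p 0.0266) and Lhfpl4 (-0.46, edgeR adjusted p 0.0304), a partner of the receptor at the synapse, passed the adjusted p but not the fold of 1.5.

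The chloride gradient decides what an open GABA-A receptor does. Slc12a2, which encodes the importer NKCC1, was higher in MS+EA than in Control rats, by a log2 fold change of 0.53 (SE 0.127, edgeR adjusted p 0.0356), without overlap and below the fold of 1.5. The MS+EA rats were uneven, with C3 at 157, C10 at 132 and C16 at 209 CPM, against 109 to 119 CPM in Control rats. C10 lay within the range of the MS rats (131 to 138 CPM). Which cells held this message was not tested. Slc12a5, which encodes the neuronal exporter KCC2, was at -0.18 between MS+EA and MS rats (edgeR adjusted p 0.345). Of 6 genes for GABA synthesis and transport, 0 were at an unadjusted p under 0.05 between MS and Control rats, and 3 were lower between MS+EA and MS rats. They include the vesicular carrier Slc32a1 (-0.18, edgeR adjusted p 0.394). Slc32a1 was at -0.22 between MS+EA and Control rats (edgeR adjusted p 0.144).

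Markers of other cells and regions differed between the groups as well. The neuronal marker Snap25 was at 0.26 between MS and Control rats, without overlap, while the 8 pan-neuronal markers had a median of 0.03. The 6 excitatory markers summed to 4368 to 5142 CPM in Control, 4492 to 4606 in MS and 3860 to 4005 in MS+EA rats, the last below all Control and MS rats, with Slc17a7 (-0.30) and Camk2a (-0.36) lower in MS+EA than in Control rats at an edgeR adjusted p of 0.0207 and 0.0387. The 12 inhibitory markers tested had a median of 0.02 between MS and Control rats and -0.11 between MS+EA and Control rats. Of the thalamic and hypothalamic markers 7 of 7 tested were higher in MS than in Control rats (median 0.32), with Rora (0.22) and Prkcd (0.52) free of overlap. Their sum was 177 to 181 CPM in Control, 194 to 274 in MS and 203 to 213 in MS+EA rats. Oxt held 0 to 1 counts in the MS+EA rats, but also only 2 and 4 in Control rats A2 and A6 and 4 in MS rat B6. Hcrt held 0 to 2 counts in every rat except A1. Of 10 layer 6 and 6b markers 9 were lower in MS than in Control rats (median -0.47), with sums of 265 to 318, 236 to 250 and 263 to 280 CPM in Control, MS and MS+EA rats, and 9 were higher in MS+EA than in MS rats (median 0.46). All 7 oligodendrocyte markers were lower in MS than in Control rats (median -0.23), with 0 at an unadjusted edgeR p under 0.05. All 7 were higher in MS+EA than in MS rats (median 0.43), where Gabra2 was at -0.15 and Gabrd at -0.22, with 1 at an unadjusted edgeR p under 0.05, and higher than in Control rats (median 0.13). They summed to 2154 to 3290 CPM in Control, 1862 to 2956 in MS and 2076 to 4261 in MS+EA rats, which overlapped. The upper layer, layer 5, striatal, astrocyte, oligodendrocyte precursor, microglia and endothelial lists had medians between -0.16 and 0.24 in MS against Control rats and between -0.22 and 0.06 in MS+EA against Control rats. Of these, all 4 endothelial markers tested were higher in MS than in Control rats. They summed to 83.9 to 100 CPM in Control, 105 to 116 in MS and 86.1 to 109 in MS+EA rats. All 8 microglia markers were lower in MS than in Control rats, with 0 at an unadjusted edgeR p under 0.05 and sums that overlapped. The part of all these markers in the subunit values was not tested. Without B4, the rat with the most Oxt and Avp, Gabrb2 was at 0.38 and Gabra4 at 0.26 between MS and Control rats. Without A1 they were at 0.35 and 0.27.

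Long non-coding RNA took 0.798% to 0.908% of the counts in Control, 0.852% to 0.964% in MS and 0.976% to 1.13% in MS+EA rats, the last above all others. Of 6 nuclear RNAs listed 2 were in the table, and both were higher in MS+EA than in MS rats at an unadjusted p under 0.05 (median 0.37). Whether the lower Gabrd and Gabra2 values of MS+EA rats moved with this share was not tested.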

How the data were processed

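Total RNA from the PFC of 9 rats was sequenced on a HiSeq X after rRNA depletion. The submitters' processing notes name HISAT2 2.0.4 and Rnor_6.0. The authors deposited raw read counts per gene, without normalization, for 37209 genes. The counting program, its strand setting and the treatment of reads with several locations are not given in the sources used here, so reads from antisense or overlapping genes cannot be told apart. Totals ranged from 12479905 to 19007907 counts per rat. Each subunit held at least 542 counts in every rat.

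Groups were taken from the labels. The 7 subunits, the gene lists and the tests were chosen with earlier results of these data known. Counts were scaled by TMM in edgeR 4.0.16 (R 4.3.3), kept by filterByExpr (minimum count 10), and fitted with 1 mean per group in a quasi-likelihood model of all 9 rats, with p-values adjusted after Benjamini and Hochberg across 16837 genes. The call thresholds (adjusted p 0.05, fold 1.5) are those of the study. Confidence intervals are those of the edgeR fit at 95%. Shares were compared by exact two-sided permutation of rats. Profiles were compared as log2(CPM + 0.5), centred per gene. From each list, up to 4 genes per comparison were named, those with the smallest p among genes at an unadjusted p under 0.05 whose groups did not overlap. Genes outside this rule (Gabra6, and Oxt, Avp, Pmch and Hcrt as counts) were chosen after their values were seen. Alternatives were DESeq2 1.42.0, limma-trend (limma 3.58.1), RLE size factors, total counts, other filters, fits of 6 rats, the omission of each rat, and other denominators of the shares. Some genes that this rule names are not reported here. The procedures were tested on simulated counts. Promoters came from a RefSeq table on GRCr8, which held 6 of the 7 genes (all but Gabra2). That build differs from the one the reads were mapped to, so it served for sequences and gene order only.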

Additional observations from a re-analysis of the deposited data

How the results depend on the processing

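No subunit passed both thresholds under any alternative that was run. Gabrb2 kept its direction in both comparisons with Control rats under all 16 alternatives (0.31 to 0.40 for MS, 0.21 to 0.44 for MS+EA, log2), and so did Gabra4 (0.19 to 0.31 and 0.21 to 0.42). Their adjusted p depended on the setting. For Gabrb2 it ranged from 0.0219 to 0.458 (MS) and from 0.00748 to 0.184 (MS+EA), and for Gabra4 from 0.142 to 0.654 and from 0.0159 to 0.171. Against Control, both passed 0.05 in MS+EA rats with DESeq2, total counts, at least 10 counts in every rat, at least 1 count and without C3, and Gabrb2 in MS rats with at least 1 count (0.0219).

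Leaving out each rat in turn, the number of subunits at an unadjusted p under 0.05 was 1 to 3 between MS and Control rats (2 with all rats; 1 without A2 or B6, 3 without B3), 0 to 3 between MS+EA and MS rats (0 with all; 1 without A1, B3 or C3, 3 without C10), 2 to 4 between MS+EA and Control rats (4 without C10) and 2 to 4 for any difference (4 without C10). Between MS+EA and MS rats it was 1 with DESeq2 and 1 with at least 1 count. Shares without overlap numbered 3 to 5 between MS and Control rats (5 without B4) and 1 to 4 between MS+EA and MS rats (2 without B3 or B6, 4 without C3, 3 without C16), where they were 2 with all subunits, with the members other than Gabrb2, or with the same class as denominator. Between MS+EA and Control rats they were 2 in place of 7 without Gabrb2 in the denominator. Shares at an exact permutation p under 0.05 over the 3 groups numbered 2 to 5 in place of 6 when a rat was left out (3 without A2, 2 without A6 or C10). With all 19 subunit genes as denominator they numbered 5, without Gabrb2 (0.075) and Gabra4 (0.139). The denominators other than all subunits were chosen after the data had been seen.

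Log2 fold changes near 0 changed sign when a rat was left out. Between MS and Control rats the range was -0.094 to 0.144 for Gabra5, -0.026 to 0.060 for Gabrb1 and -0.034 to 0.148 for Gabrd. Between MS+EA and MS rats it was -0.139 to 0.054 for Gabra3, -0.048 to 0.160 for Gabra4 and -0.149 to 0.079 for Gabrb2. Between MS+EA and Control rats it was -0.080 to 0.0032 for Gabra2, -0.186 to 0.0069 for Gabra3 and -0.160 to 0.010 for Gabrb1. With total counts in place of TMM, Gabrb1 was -0.0018 (MS against Control), Gabra3 0.016 (MS+EA against MS) and Gabra2 0.00097 (MS+EA against Control), and limma-trend gave Gabrb2 -0.011 (MS+EA against MS). Why these differed was not tested.

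Over all genes, the number called was 4 between MS and Control rats (70 by DESeq2, 207 with at least 1 count, 11 with 6 rats, 2 to 22 without a rat), 3 between MS+EA and MS rats (37, 72 and 1, and 0 with at least 10 counts in every rat, 1 to 4 without a rat) and 230 between MS+EA and Control rats (469 with at least 1 count, 71 without A1, 121 without C10). No paired analysis was possible because no rat belongs to more than 1 group and the labels link none across groups. With 3 rats per group, a pair of groups cannot reach an exact permutation p below 0.1.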
